A study of Homo sapiens with 6 samples.

Results

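The comparison described here set syk-transfected U373 cells that had received no inducer against U373 cells that had not been transfected. U373 is a human glioblastoma line of astroglial character, and some stocks distributed under that name are known to be another glioblastoma line. Which stock was used, and whether the transfected cells were 1 clone or a pool, was not given in the sources used here. The study as a whole used 6 oligonucleotide arrays of the U95 Av2 type to follow cells in which the tyrosine kinase SYK was placed under an ecdysone-inducible promoter, switched on by ponasterone A (PonA).

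The arrays compared were 4 of the 6, chosen by their labels. A single array carried RNA of untransfected, untreated cells at day 1, and is called the untransfected array. The other arrays carried RNA of syk-transfected cells without PonA. These were untreated cells at day 1, cells given ethanol, the solvent of PonA, at day 1, and untreated cells at day 2. All cells were grown in RPMI with 5 to 10% fetal calf serum. The remaining 2 arrays, of transfected cells given ethanol and 10 µM PonA at day 1 and at day 2, were not used to choose genes and are given as further values. There was no untransfected array at day 2 or with ethanol, and no condition had a second array, so the effects of transfection and of selecting the cells cannot be told apart from whatever was particular to the untransfected array.

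In an ecdysone-inducible system the cell is given a modified insect ecdysone receptor, which pairs with the retinoid X receptor (RXR) and binds a promoter that mammalian cells do not use. Such cells are usually selected with antibiotics after the receptor and the responder construct have been introduced, and they are the baseline from which induction is later measured. Astroglial cells are known by the intermediate filament proteins GFAP and vimentin, and glioblastoma lines keep these to varying degrees while also making extracellular matrix, matrix proteases and growth factor binding proteins.

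Values are MAS5 signals, a linear brightness per probe set after each array had been scaled to the same trimmed mean. A signal under the 40th percentile of its array, which lay between 22.7 and 26.5 units and is called the floor, was set to the floor, and a fold that meets the floor on either side is a lower bound. A probe set was called higher or lower where it differed at least 2-fold in the same direction on all 3 transfected arrays. These calls follow a rule of size and carry no p-value, and because the 3 comparisons share the untransfected array they are not independent of each other. Hybridisation spike-in controls had a geometric mean signal of 157 on the untransfected array and of 271 to 474 on the 3 transfected arrays, and the part of this difference in the results was not tested. The 3' to 5' ratio of GAPDH was 0.939 to 0.964 on the 4 arrays, and that of beta-actin was 0.960 to 0.987 on the day 1 arrays and 1.21 on the untreated day 2 array.

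The transfected cells differed from the untransfected cells in 72 probe sets that were higher and 97 that were lower, that is 0.853% and 1.15% of the 8442 whose signal passed the floor somewhere among the 4 arrays. IGFBP3, MIA, TGM2, SCRG1, NUPR1 and IGFBP5 were among the genes with the largest higher signals, and GFAP, NEFL, SCG2, CCL2, TUBB2B and POLD1 among those with the largest lower ones. Counted by gene, with the brightest probe set standing for each, 55 of 6029 genes (0.912%) were higher and 68 (1.13%) were lower. In bulk RNA, fewer cells of a type and less RNA per cell cannot be told apart.

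Taken 1 array at a time, at least 2-fold differences from the untransfected array were found in 460 of 8045 probe sets (5.72%) for untreated cells at day 1, in 556 of 8039 (6.92%) for ethanol-treated cells at day 1 and in 496 of 8022 (6.18%) for untreated cells at day 2. Among the transfected arrays themselves such differences were fewer. The ethanol array and the untreated day 1 array were 2-fold or more apart in 175 probe sets (2.18%), the untreated arrays of day 1 and day 2 in 255 (3.19%), and the ethanol and untreated day 2 arrays in 330 (4.12%). The spread of the log2 differences told the same, with a standard deviation over probe sets of 0.53 to 0.56 against the untransfected array and of 0.40 to 0.46 among the transfected arrays.

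A limma fit of the 3 transfected arrays against the untransfected one was made as a second reading. Its error term holds the differences of treatment and day among the transfected arrays, and the lone untransfected array was assumed to vary like them. At a Benjamini-Hochberg adjusted p of 0.05 the fit called 46 of 8442 probe sets (0.545%), 22 higher and 24 lower. It used the same values as the rule of size, so that all 46 also passed that rule adds no support. Of all probe sets tested, 963 had an unadjusted p under 0.05. The number called ran from 0 under quantile normalization, where 1107 had an unadjusted p under 0.05, to 237 without the ethanol array, so no p-value is attached to single genes here.

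**Figure D1:**
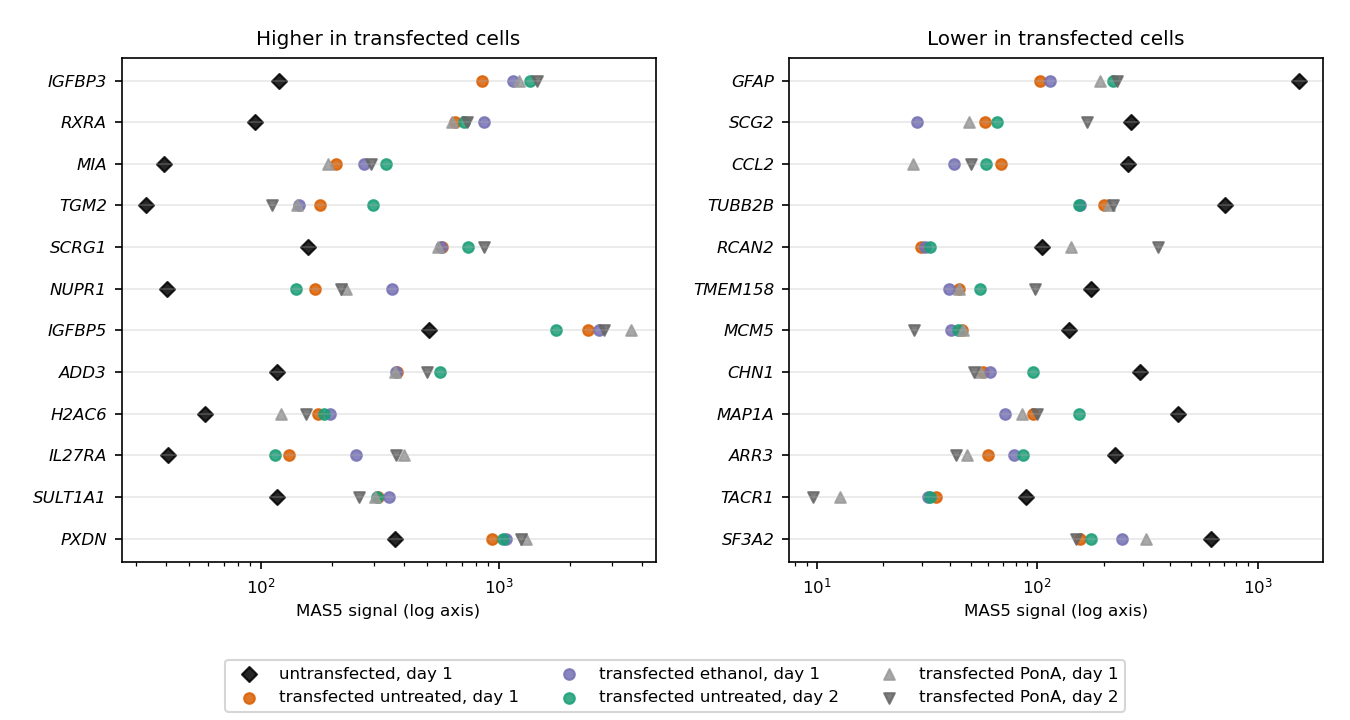
MAS5 signal on a log axis for the 12 genes higher and the 12 genes lower in transfected cells by the largest smallest-of-3 difference, among probe sets above the floor on all 4 arrays. Each point is 1 array, the diamond is the untransfected array, circles are the transfected arrays without PonA and triangles those with PonA. The diamond lies apart from all 3 circles in every row, as the choice of these genes requires. The triangles lie on the other side of it for RCAN2, at 142 and 353 against 105.

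Astroglial identity was the first group examined. GFAP, the intermediate filament protein that defines mature and reactive astrocytes, had a signal of 1533 on the untransfected array and of 103 in untreated cells at day 1, 114 in ethanol-treated cells and 221 in untreated cells at day 2. It was therefore 6.92 to 14.8-fold lower on the transfected arrays than on the single untransfected array. SLC1A3, the glial glutamate transporter, gave 82.0 on the untransfected array and 38.8, 22.8 and 24.01 on the transfected arrays in the same order, with the ethanol array under the floor.

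Other astroglial genes lay closer to the untransfected array. Vimentin (VIM) gave 5102 on the untransfected array and 5430 to 6458 on the transfected arrays. CD44, a hyaluronan receptor common in glioma, gave 1828 and 1326 to 1785. FABP7, a fatty acid binding protein of radial glia, gave 2391 and 1647 to 2185, and the transcription factors SOX2 and SOX9 stood at 691 and 880 on the untransfected array and at 509 to 1050 and 744 to 1122 on the transfected ones. S100B, a calcium-binding astrocyte marker, was dim throughout, at 51.8 and 25.5 to 46.7. Of 15 astroglial markers tested, 2 were at least 2-fold lower and none was at least 2-fold higher, and at any size 8 (53.3%) were lower on all 3 arrays and 2 (13.3%) higher, with a median log2 difference of -0.22. Over all genes these shares were 1.13% for 2-fold lower, and 28.0% lower and 29.3% higher at any size. The summed signal of the 19 astroglial markers on the array was 17841 on the untransfected array and 16041 to 17189 on the transfected arrays. AQP4, SLC1A2, NFIA and SPARCL1 lay under the floor on all 4 arrays.

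Of 14 tested neuronal markers 3 were at least 2-fold lower, against 1.13% of all genes, and none was 2-fold higher. At any size 4 (28.6%) were lower on all 3 arrays, near the 28.0% of all genes, 2 (14.3%) were higher, and the median log2 difference was -0.07. NEFL, the light neurofilament subunit, gave 458 on the untransfected array and 26.5, 23.6 and 25.7 on the transfected arrays, which is at or near the floor. This was at least 17.3-fold lower on each array. SCG2, a secretory granule protein, gave 266 against 58.1, 28.4 and 65.6.

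THY1, a surface glycoprotein of neurons and fibroblasts, gave 1247 against 401, 530 and 390, at least 2.35-fold lower. L1CAM, a neural adhesion molecule, gave 125 on the untransfected array and lay under the floor on all 3 transfected arrays, so it was at least 4.75-fold lower. Other neuronal markers differed by less, and UCHL1, a neuronal ubiquitin hydrolase, gave 2338 against 2172 to 2701 while TUBB3, a neuronal beta-tubulin, gave 1893 against 1348 to 1725.

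TUBB2B, a beta-tubulin of the developing brain, gave 709 on the untransfected array and 200, 156 and 154 on the transfected arrays. MAP1A, a microtubule-associated protein, gave 435 against 95.4, 71.2 and 155. MAP1B, its relative in growing axons, was chosen after its values were seen, and all 3 of its probe sets on the array were lower, one of them at 366 against 169, 182 and 111.

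TPM1, an actin-stabilising tropomyosin, gave 776 against 2044, 1854 and 1778, and its other 2 probe sets were also at least 2-fold higher. ADD3, an adducin that links spectrin to actin, gave 118 against 375, 370 and 568. A second ADD3 probe set, at 31.8 against 68.3, 48.2 and 72.3, fell short of 2-fold on the ethanol array. Of 35 tested actin and contractility genes, TPM1 was the one that was at least 2-fold higher, against 0.912% of all genes. At any size 8 (22.9%) were higher on all 3 arrays and 14 (40%) were lower, against 29.3% and 28.0% of all genes. Their median log2 difference was -0.05.

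Extracellular matrix and matricellular genes were higher as a group by count. Of 35 tested, 5 were at least 2-fold higher and none 2-fold lower, against 0.912% and 1.13% of all genes. At any size 21 (60%) were higher on all 3 arrays and 4 lower (11.4%), against 29.3% and 28.0% of all genes. The median log2 difference of the list was 0.36, against 0.03 over all genes.

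MGP, a matrix protein that inhibits calcification, gave 11 on the untransfected array, under the floor, and 174, 205 and 137 on the transfected arrays, which is at least 5.68-fold higher. POSTN, the adhesion protein periostin, gave 10.4 against 150, 94.6 and 78.7, at least 3.26-fold higher. ECM1, a secreted matrix glycoprotein, gave 20.95 against 84.4, 78.0 and 85.4. MGP, POSTN and ECM1 were named from genes under the floor on the untransfected array and higher on all 3 transfected arrays. That contrast is therefore set by the choice.

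CCN2, the matricellular connective tissue growth factor, gave 676 against 1847, 1466 and 1771. LAMA4, a laminin chain of basement membranes, gave 114 against 269, 231 and 237, just inside the 2-fold limit. Of the 7 laminin chains tested, 4 were higher on all 3 arrays and 3 lower, against 29.3% and 28.0% of all genes. TNC, the matrix glycoprotein tenascin, was among the 4 lower members of the list, at 1234 against 834 to 1060.

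Among 23 tested collagens, 2 were at least 2-fold higher, against 0.912% of all genes. COL11A1, a fibrillar collagen chain of cartilage, gave 548 against 1583, 1184 and 1157. COL6A3, a chain of the microfibrillar collagen VI, gave 138 against 373.1, 316 and 313. The other chains of collagen VI did not share this, since COL6A1 gave 1404 against 889 to 949 and COL6A2 gave 1283 against 582 to 1220.

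P4HA1, a subunit of collagen prolyl hydroxylase, gave 599 against 1643, 1433 and 1208. PLOD2, a collagen lysyl hydroxylase chosen after its values were seen, gave 337 against 870, 806 and 700. PXDN, a peroxidase that crosslinks collagen IV, gave 368 against 933, 1076 and 1038. For each of the 3, the transfected arrays lay closer to each other than to the untransfected array, which the choice of these genes favours.

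Of 24 tested matrix proteases and their inhibitors, 16 (66.7%) were higher at any size on all 3 arrays and 1 (4.17%) was lower, against 29.3% and 28.0% of all genes, with a median log2 difference of 0.38. TIMP4, a metalloproteinase inhibitor, was the one that was at least 2-fold higher on all 3, at 22.4, under the floor, against 57.0, 66.4 and 96.2. PLAU, the urokinase plasminogen activator, gave 511 against 1247, 994 and 836, and PLAT, the tissue plasminogen activator, gave 442 against 803, 972 and 924. MMP14, a membrane-bound metalloproteinase, gave 155 against 311, 311 and 285. For these last genes at least 1 array fell short of 2-fold.

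**Figure D2:**
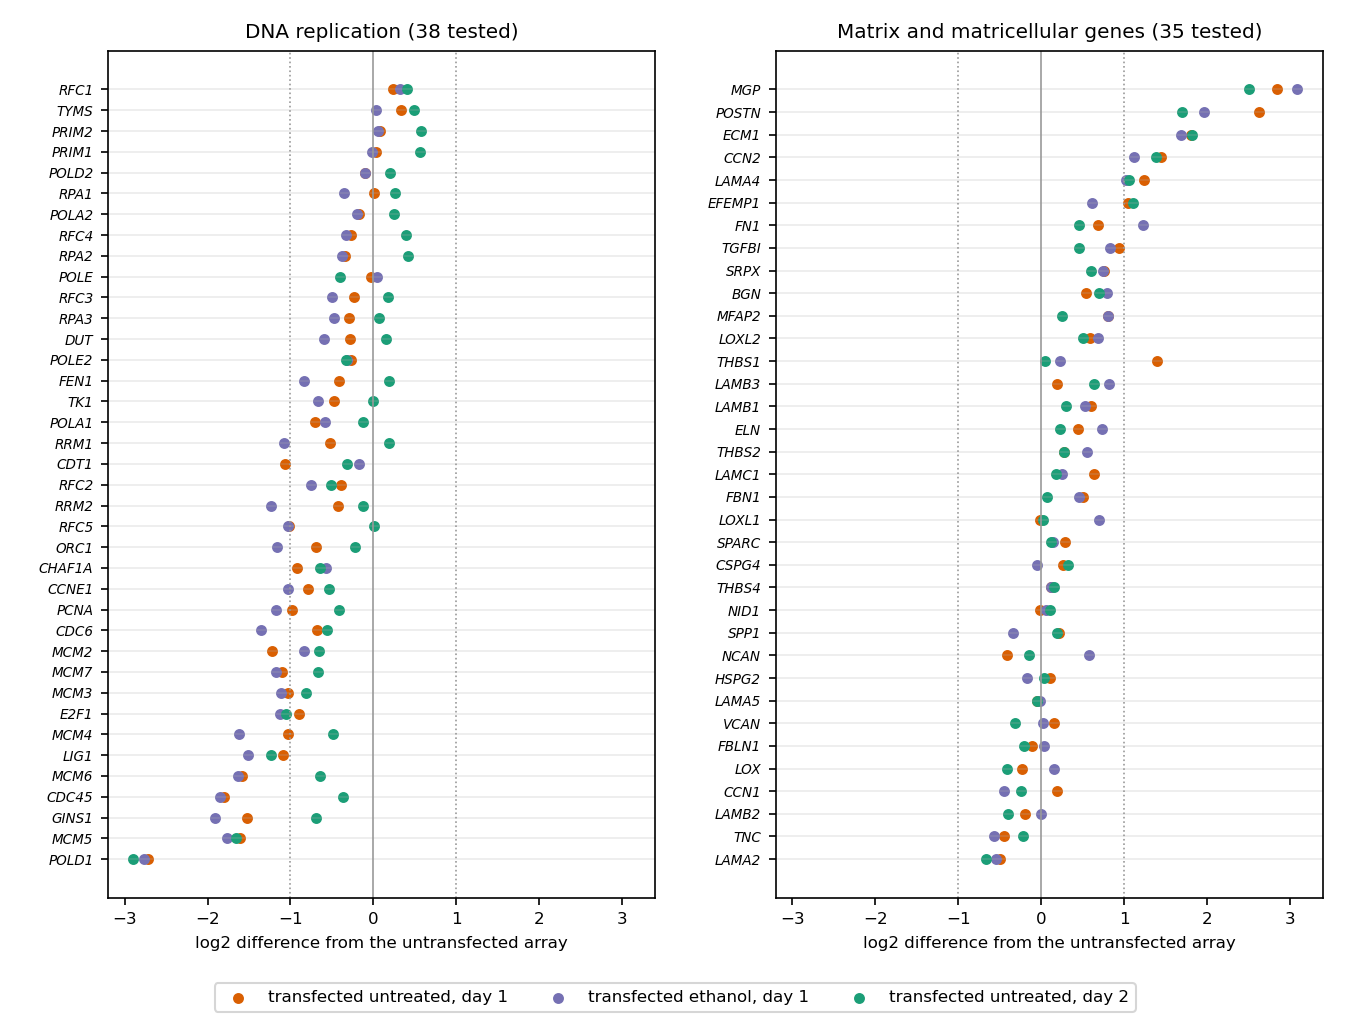
Log2 difference of each transfected array from the untransfected array for the tested genes of the DNA replication list (38) and of the matrix and matricellular list (35), sorted by the mean over the arrays. Dotted lines mark 2-fold in either direction. In the replication list, 22 genes lie left of 0 on all 3 arrays and 3 right of it, and the day 2 points lie to the right of the day 1 points for most genes. In the matrix list, 21 genes lie right of 0 on all 3 arrays and 4 left of it.

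IGFBP3, a binding protein that carries insulin-like growth factors, gave 119 on the untransfected array and 849, 1146 and 1352 on the transfected arrays. It was 7.12 to 11.3-fold higher, and its second probe set gave 170 against 828, 1132 and 1183. IGFBP5, a matrix-bound member of the same family, gave 512 against 2372, 2635 and 1737, and each of its other 5 probe sets was higher on all 3 arrays. Of 6 tested IGF binding proteins, 4 were higher at any size on all 3 arrays and none lower, against 29.3% and 28.0% of all genes.

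IGFBP2 was higher by less, at 1956 against 3137, 3603 and 2441. IGFBP7 did not separate from the untransfected array, at 2628 against 2852, 2823 and 2316. Among the ligands, TGFA, which activates the EGF receptor, gave 113 against 253, 372.7 and 237. Among the receptors, FGFR3 gave 97.7 against 11.2, 36.9 and 24.7, the first of which lay under the floor. Of 39 tested growth factors, binding proteins and receptors, 3 were at least 2-fold higher and 1 was 2-fold lower. Over all genes these shares were 0.912% and 1.13%.

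The orphan receptor tyrosine kinases ROR1 and ROR2, which bind WNT ligands, were under the floor on the untransfected array. ROR1 gave 11.4 there against 77.5, 79.6 and 72.8, at least 3.01-fold higher. ROR2 gave 22.2 against 72.2, 76.5 and 86.2, at least 2.99-fold higher. Both were named from genes under the floor on the untransfected array and higher on all 3 transfected arrays. Their contrast is therefore set by the choice. SFRP1, a secreted WNT antagonist, lay the other way, at 613 against 204, 276 and 260. ROR1 and ROR2 were not in the list of WNT and Notch genes. Of the 23 tested genes of that list, SFRP1 was the only one past 2-fold, against 0.912% higher and 1.13% lower over all genes.

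MIA, a secreted protein first known from melanoma, gave 39.3 on the untransfected array and 208, 272 and 335 on the transfected arrays, 5.29 to 8.52-fold higher. SCRG1, a secreted protein found in glia and cartilage, gave 157 against 575, 572 and 742. CDH2, the N-cadherin of neural and mesenchymal cells, gave 670 against 1562, 1517 and 1579. A second CDH2 probe set, at 123 against 110, 109 and 158, did not share this difference.

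Of 19 tested NF-kB, cytokine and chemokine genes, 1 was at least 2-fold lower and none higher, against 1.13% and 0.912% of all genes. At any size 8 (42.1%) were higher on all 3 arrays and 5 (26.3%) lower, against 29.3% and 28.0% of all genes. Their median log2 difference was 0.19. Of 10 tested complement genes, 1 was at least 2-fold higher and none lower. CCL2, a chemokine that attracts monocytes, gave 257 on the untransfected array and 68.8, 41.7 and 58.5 on the transfected arrays. A second CCL2 probe set gave 125 against 39.1, 22.8 and 36.2, while the remaining one lay under or near the floor throughout. IL27RA, a chain of the interleukin-27 receptor outside these lists, was higher, at 40.7 against 132, 251 and 115. A second IL27RA probe set gave 57.2 against 78.1, 127 and 67.4, past 2-fold on the ethanol array only. C1S, a protease of the classical complement pathway, gave 26.2 against 60.7, 54.3 and 58.2, close to the floor on the untransfected array.

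MX1, an interferon-induced antiviral GTPase, gave 52.8 and lay under the floor on all 3 transfected arrays. It was the only one of 30 tested interferon-stimulated genes past 2-fold, against 0.912% higher and 1.13% lower over all genes. At any size 6 (20%) of them were higher and 11 (36.7%) lower on all 3, against 29.3% and 28.0% of all genes. Markers of haematopoietic cells summed to 544 on the untransfected array and 522 to 633 on the transfected arrays. Those of epithelial cells summed to 956 and 829 to 893, of endothelial cells to 191 and 189 to 254, of fibroblasts and smooth muscle, which include THY1, to 3538 and 2701 to 2747, and of oligodendrocytes to 1557 and 1057 to 1206. The part of any of these in the results was not tested.

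Genes of DNA replication were lower in transfected cells by count and by median. Of 38 tested, 3 were at least 2-fold lower and none 2-fold higher, and 22 (57.9%) were lower at any size on all 3 arrays while 3 (7.89%) were higher. Over all genes, 1.13% were 2-fold lower, and 28.0% were lower and 29.3% higher at any size. The median log2 difference was -0.60 in untreated cells at day 1, -0.79 in ethanol-treated cells and -0.27 in untreated cells at day 2. The difference was thus smaller on the day 2 array, and no untransfected array of day 2 was there to set beside it.

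MCM2 to MCM7, the 6 subunits of the replicative helicase, were each lower on all 3 arrays, with a median log2 difference of -1.02. MCM5 gave 139 on the untransfected array and 45.4, 40.7 and 43.9 on the transfected arrays. MCM7 gave 1032 against 481, 457 and 651, and MCM6 gave 452 against 151, 146 and 289. For MCM6 the day 2 array stood between the untransfected array and the day 1 arrays.

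POLD1, the catalytic subunit of DNA polymerase delta, gave 173 on the untransfected array and 14.2, 15.9 and 14.1 on the transfected arrays, all under the floor. It was at least 6.59-fold lower. POLD2, the second subunit of the same enzyme, gave 732 against 681, 680 and 839. LIG1, the DNA ligase that joins Okazaki fragments, gave 138 against 64.7, 48.6 and 58.9. PCNA, the polymerase clamp, gave 911 against 462, 405 and 686.

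TYMS, the thymidylate synthase, was one of the 3 higher members, at 2329 against 2931, 2377 and 3270. CCND1, the cyclin D1 of the G1 phase, which was in another list, gave 503 against 203, 122 and 191, and its other 2 probe sets were at least 2-fold lower as well. Of 35 mitotic genes tested, none was past 2-fold in either direction, against 0.912% higher and 1.13% lower over all genes. At any size 11 (31.4%) were lower on all 3 arrays and 9 (25.7%) higher, near the 28.0% and 29.3% of all genes. Their median log2 difference was -0.16, -0.29 and 0.21 on the untreated day 1, ethanol and untreated day 2 arrays.

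Stress response genes held 2 members of 31 past 2-fold, both higher, against 0.912% higher and 1.13% lower over all genes. NUPR1, a stress-induced chromatin protein, gave 40.5 against 170, 356 and 141. DDIT3, the transcription factor CHOP, gave 86.4 against 201, 399 and 263. For both, the ethanol array was the highest of the transfected arrays without PonA. A second probe set of each gene was higher on all 3 arrays but past 2-fold on the ethanol array only. On the untreated day 1 and day 2 arrays it was 1.52 and 1.67-fold higher for NUPR1. For DDIT3 it was 1.63-fold higher on each of these arrays. CALR, the chaperone calreticulin, gave 1127 against 1966, 2282 and 2120, and a second CALR probe set was past 2-fold.

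Among metabolic genes, TGM2, a transglutaminase that is a known retinoid target, gave 32.9 against 178, 144 and 298. It was the only one of 12 tested retinoid and RXR partner targets past 2-fold, against 0.912% higher and 1.13% lower over all genes. At any size 3 (25%) of them were lower, near the 28.0% of all genes, and 1 (8.33%) was higher, against 29.3%. PCK1, the gluconeogenic carboxykinase, gave 118 and lay under the floor on all 3 transfected arrays, as did TKTL1, a transketolase relative, from 165. ALDH1B1, a mitochondrial aldehyde dehydrogenase, gave 54.8 and was also under the floor on all 3.

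Sterol and fatty acid synthesis held no gene past 2-fold among 21, though 14 (66.7%) were lower at any size on all 3 arrays and 3 (14.3%) higher, against 28.0% and 29.3% of all genes, with a median log2 difference of -0.29. Oxidative phosphorylation genes were read the same way, with none past 2-fold among 45, 22 (48.9%) lower, 9 (20%) higher and a median of -0.19. Hypoxia and glycolysis genes lay the other way, with 15 (51.7%) higher and 1 (3.45%) lower of 29 and a median of 0.17. Ribosomal proteins, HOX genes, proteasome subunits and p53 targets had no gene past 2-fold among 40, 13, 30 and 13, and medians of 0.01, -0.01, -0.07 and 0.04.

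**Figure D3:**
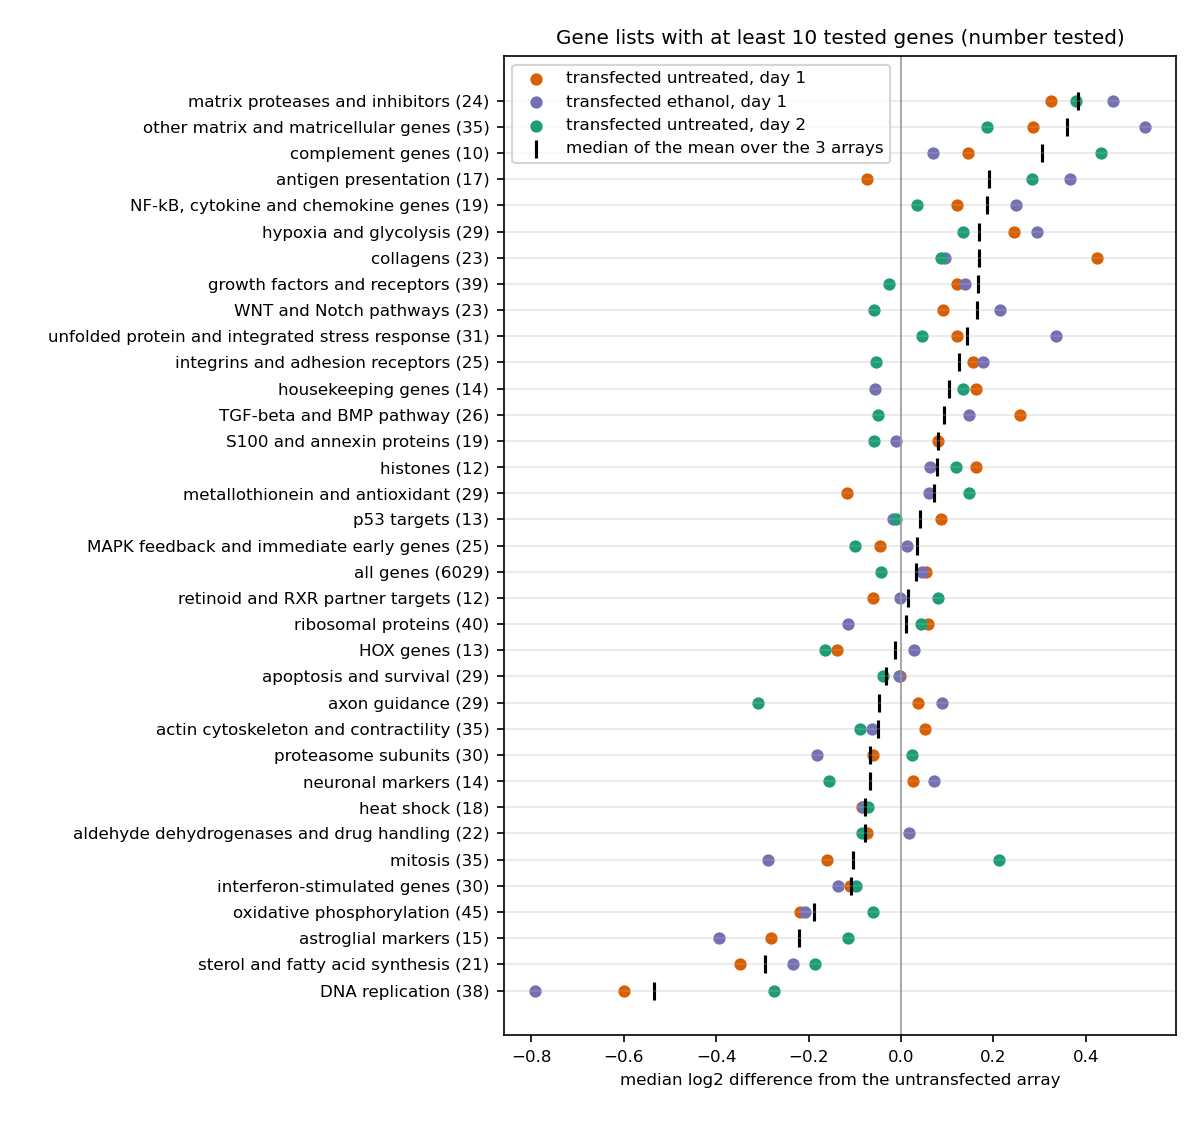
Median log2 difference from the untransfected array for each gene list with at least 10 tested genes, with the number tested in brackets, shown per transfected array (circles) and for the mean over the arrays (bars). Matrix proteases lie highest at 0.38 and DNA replication lowest at -0.54, and all genes together lie at 0.03.

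The components of the expression system were read by several probe sets. One RXRA probe set was 6.87 to 9.12-fold higher on the transfected arrays, at 95.01 against 653, 867 and 713, while the other was lower, at 375 against 243, 255 and 266. RXRB gave 229 against 226 to 231, and the brighter RXRG probe set gave 26.3 against 26.6 to 37.7. Of 3 SYK probe sets, 2 lay under the floor on all 4 arrays, and the other gave 31.1 against 73.1, 64.1 and 22.02, the last under the floor, so SYK was not called in either direction before PonA.

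MAP2K5, the kinase MEK5 that activates ERK5, had the largest difference of any member and also the plainest disagreement between probe sets. Its brightest probe set gave 12.3 on the untransfected array, under the floor, and 869, 1388 and 1061 on the transfected arrays, at least 35.9-fold higher. The other 4 probe sets gave 44.0 to 93.9 on the untransfected array and 44.3 to 144 on the transfected arrays, and none was past 2-fold. RXRA and MAP2K5 were the 2 genes with another probe set lying the opposite way on all 3 arrays.

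**Figure D4:**
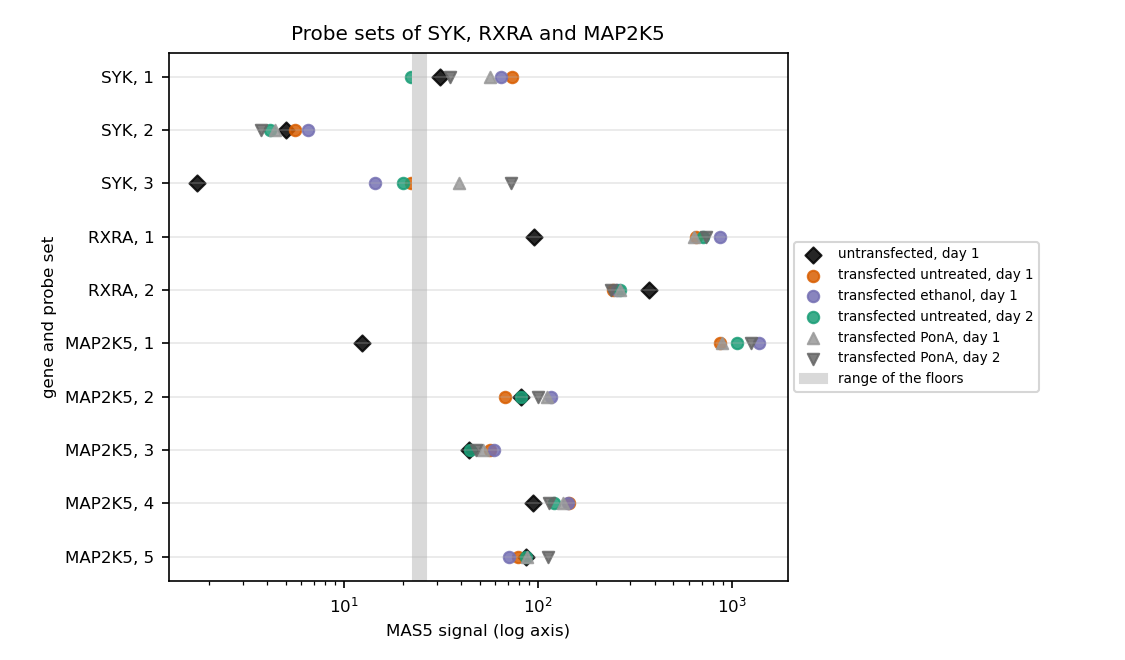
MAS5 signal on a log axis of each probe set of SYK, RXRA and MAP2K5 on the 6 arrays, 1 point per array, with the range of the floors in grey. RXRA probe set 1 and MAP2K5 probe set 1 hold the untransfected array far to the left of the rest, at 95.01 and 12.3. The other RXRA probe set holds it to the right of the rest, at 375 against 239 to 266. In the other MAP2K5 probe sets every transfected array lies within 2-fold of the untransfected array.

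For most other genes with more than 1 probe set the readings went together. Of the 123 genes called, 21 had another tested probe set, 34 in all. Of these, 27 differed the same way on all 3 arrays, 13 of them by at least 2-fold, 2 the opposite way and 5 in mixed directions. MXI1, a MYC antagonist chosen after its values were seen, is one of those that went together, with its second probe set at 112 against 393, 456 and 465.

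The median range of the members over the transfected arrays was 0.34 log2 units for the higher and 0.29 for the lower probe sets. Some ranged further, such as NUPR1 at 1.33 and GFAP at 1.10. For probe sets under the floor on all 3 transfected arrays, the floors set the range. Of the 72 higher probe sets, 54 were above the floor on all 4 arrays and 18 were under it on the untransfected array. Of the 97 lower ones, 49 were above the floor on all 4 arrays, 23 were under it on all 3 transfected arrays and 25 on some. Among those above the floor throughout, the range over the transfected arrays was smaller than the smallest distance from the untransfected array in 54 of 54 higher and 47 of 49 lower probe sets, which the requirement for agreement on all 3 arrays favours.

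The median of the smallest fold was 2.35 for the higher and 2.45 for the lower probe sets, and 7 and 9 were past 4-fold on all 3 arrays. Those closest to the limit were P4HA1 and LAMA4 among the higher, at a smallest fold of 2.016 and 2.037, and SLC6A6 and MX1 among the lower, at 2.003 and 2.009. Just outside stood CDS1 and CASK among the higher, at 1.997 and 1.992, and NQO1 and EDN2 among the lower, at 1.9998 and 1.995.

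The 2 PonA arrays came from the same transfected cells and share the untransfected array, so they are not an independent check. Over all probe sets, 513 of 8067 (6.36%) were at least 2-fold higher than on the untransfected array and 462 (5.73%) lower with PonA at day 1, and 597 of 8102 (7.37%) higher and 583 (7.20%) lower at day 2. Of the 72 higher members, 62 (86.1%) and 61 (84.7%) were at least 2-fold higher there too. Of the 97 lower members, 73 (75.3%) and 77 (79.4%) were at least 2-fold lower.

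GFAP stayed low with PonA, at 193 and 229, and IGFBP3 stayed high, at 1221 and 1446. MGP gave 112 and 107 and POLD1 8.94 and 6.56, both of the POLD1 values under the floor. Genes that lay on the other side of the untransfected array on both PonA arrays were few, 1 of the 72 and 3 of the 97. Members were chosen for their distance from the untransfected array that these comparisons share, so a high share of members past 2-fold here is favoured by the choice.

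Other members ran across many functions. Among the higher were H2AC6 and H2BC5, histones with polyadenylated transcripts, at 58.3 against 174, 196 and 184 and at 18.8, under the floor, against 82.2, 122 and 122. SULT1A1, a phenol sulfotransferase, gave 117 against 311, 346 and 309, with close relatives that can share its probes. MAGEA1, a cancer-testis antigen of a large family of similar genes, gave 43.6 against 130, 102 and 127.

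Among the lower were CHN1, a Rac GTPase-activating protein of neurons, at 292 against 56.7, 61.1 and 95.9, and TMEM158, a membrane protein induced by RAS signalling, at 175 against 44.1, 39.6 and 55.0. TACR1, the substance P receptor, gave 89.3 against 34.8, 31.8 and 32.7. DOK5, an adaptor of receptor tyrosine kinases, gave 101 and was under the floor on all 3 transfected arrays. SF3A2, a splicing factor subunit, gave 613 against 156, 241 and 175, and its other 2 probe sets were lower by less than 2-fold on at least 1 array.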

How the data were processed

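RNA of 6 U373 cultures was measured on 6 U95 Av2 arrays, 1 per condition, and 4 are compared here. Intensity values were deposited as MAS5 signal, per the submitters' processing notes. No MAS5 version and no genome build is recorded in the labels or notes, and probe sets are given without positions. The table held 12558 probe sets beside 67 controls. Symbols came from the platform annotation, updated through a RefSeq table (GRCh38.p14), with 1 symbol for 10943 probe sets, several for 545 and none for 1070. No further scaling was applied. Signals were floored at each array's 40th percentile and put on the log2 scale, and a probe set counted as called at 2-fold or more the same way on all 3 arrays.

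The limma fit (lmFit and eBayes, limma 3.58.1, R 4.3.3) and the counting were tested on simulated data. Other floors, scalings and thresholds and leaving out arrays were tried. Nothing says that the cultures were independent, and the number of arrays limits the precision.

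Genes named were the 12 higher and 12 lower with the largest smallest-of-3 difference, the 8 largest bounds each way, SYK and RXR probe sets, and up to 4 called members of each of 41 lists. Further list members are given to describe their list. Not every gene that the rule names is reported here. The members and lists were chosen with earlier results of these data known.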

Additional observations from a re-analysis of the deposited data

Results flagged for a closer look

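Among the probe sets called without PonA, 4 lay on the other side of the untransfected array on both PonA arrays. The difference was not tested, and each value is a single array.

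RCAN2, a calcineurin regulator, gave 105 on the untransfected array, 29.6, 30.9 and 32.5 on the transfected arrays without PonA, and 142 and 353 with PonA, where its mean log2 difference from the untransfected array was 1.09. SLC1A3, the glial glutamate transporter, gave 193 and 225 with PonA against 82.0 in untransfected cells, a mean log2 difference of 1.35. CALD1, the actin-binding protein caldesmon, gave 141 in untransfected cells, 56.7, 33.8 and 47.3 without PonA and 234 and 354 with it, a mean of 1.03 with PonA. CITED1, a transcriptional coactivator, gave 146 in untransfected cells, 300.5, 324 and 330.2 without PonA and 63.8 and 59.1 with it, a mean of -1.25 with PonA.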

How the results depend on the processing

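The counts by size moved most with the floor and the fold threshold. With the floor at the 20th percentile 189 probe sets were higher and 168 lower, and with it at the 60th 42 and 35. At 1.5-fold 291 were higher and 307 lower, and at 3-fold 22 and 24. Requiring a signal above the floor on all 4 arrays left 49 lower. Agreement on only 2 transfected arrays, each array left out in turn, gave 97 to 114 higher and 120 to 138 lower. Under quantile normalization 74 and 94 were called, with 71 of the 72 higher and 91 of the 97 lower members among them, and under median scaling 76 and 92. Without a floor, on log2(signal + 16), 55 of the 72 and 66 of the 97 were kept.

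The limma fit called 46 probe sets, but 2 and 13 with the floor at the 20th and 60th percentile, 4 on log2(signal + 16), 23 above the floor on all 4 arrays, and 0 under quantile normalization, where 1107 had an unadjusted p under 0.05. Without 1 transfected array it called 37 to 237. The cause was not tested.

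Over 68 named probe sets, 468 of 570 alternative values moved by less than their standard deviation over the transfected arrays, 99 moved by more and 3 changed sign. The opposed RXRA probe sets, at mean log2 differences of 2.96 and -0.56, were not set against each other in this count. C1S had a mean log2 difference of -0.0038 with the floor at the 60th percentile, under which its untransfected signal lay. A CCL2 probe set near the floor gave 0.24 and a MAP2K5 probe set gave -0.15. Of 82 list medians, the apoptosis list changed sign, to 0.011 under quantile normalization. No paired analysis was possible because each condition has 1 array.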
